A study of Mus musculus with 12 samples.

Results

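The transcripts examined were 10 chemokines and inflammatory cytokines of ovulation, Cxcl1, Cxcl2, Cxcl10, Cxcl12, Ccl2, Ccl7, Il1b, Il6 and Tnf together with the interleukin-1 receptor Il1r1. They were taken by symbol from the 26382 genes present in both expression tables, and all 10 were found. RNA was sequenced from mural granulosa cells (MGCs) of the follicle wall and from cumulus cells, which enclose the oocyte. Each cell type came from WT mice and from Sphk1/2gc-/- mice (KO), with 3 libraries per group and 12 in all. The KO genotype was Sphk1-/-; Sphk2 fl/fl; Fshr-Cre, so that Sphk1 was absent from the whole body and Sphk2 was deleted where the Fshr-Cre transgene was active. WT mice were purchased C57/BL6 animals. All mice were immature females primed with eCG and given hCG, the ovulatory signal, 2 h before collection. The labels do not state how many animals went into a library, so the p-values measure the spread between these samples, which may be technical.

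Ovulation resembles an acute inflammation. The LH surge, here replaced by hCG, makes granulosa cells release chemokines and cytokines that draw leukocytes to the follicle wall, loosen the matrix and help the cumulus to expand. Cxcl1 and Cxcl2 attract neutrophils through Cxcr2, Ccl2 and Ccl7 attract monocytes, Cxcl10 attracts T cells through Cxcr3, and Cxcl12 acts on Cxcr4. Interleukin-1 beta, interleukin-6 and Tnf are inflammatory cytokines, and many of these genes are targets of the transcription factor NF-kB.

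The promoters of 4 of these genes are shown because they share an NF-kB-like motif. RefSeq promoters on GRCm38.p6 were matched for 8 of the 10 genes, and Ccl2 and Ccl7 were not matched. The 250 bases before the annotated start were searched on both strands for GGG, any 3 bases and TTCC in a row. The motif was found before Cxcl1, Cxcl2, Cxcl10 and Il6, that is in 4 of 8 promoters, and in 4.65% of 32851 promoters of that length. Capitals mark the matches, and matches that overlap on opposite strands form 1 run. These are matches of letters, and binding was not measured.
Cxcl1, chr5:90890995-90891244, plus strand: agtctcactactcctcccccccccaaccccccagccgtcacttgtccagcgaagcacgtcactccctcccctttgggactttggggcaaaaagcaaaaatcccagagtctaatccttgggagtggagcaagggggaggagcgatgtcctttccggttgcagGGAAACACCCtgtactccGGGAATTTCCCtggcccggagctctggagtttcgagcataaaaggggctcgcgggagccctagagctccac
Cxcl2, chr5:90903649-90903898, plus strand: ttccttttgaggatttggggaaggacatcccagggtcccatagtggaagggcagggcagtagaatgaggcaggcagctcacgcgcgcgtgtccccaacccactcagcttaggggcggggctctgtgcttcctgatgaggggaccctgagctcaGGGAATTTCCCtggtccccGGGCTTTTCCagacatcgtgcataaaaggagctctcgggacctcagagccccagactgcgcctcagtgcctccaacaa
Cxcl10, chr5:92348890-92349139, minus strand: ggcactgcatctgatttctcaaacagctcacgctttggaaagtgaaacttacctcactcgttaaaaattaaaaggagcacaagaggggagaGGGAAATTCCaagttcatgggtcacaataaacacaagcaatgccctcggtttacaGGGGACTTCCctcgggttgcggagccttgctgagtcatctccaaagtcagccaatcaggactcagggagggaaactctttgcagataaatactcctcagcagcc
Il6, chr5:30012864-30013113, plus strand: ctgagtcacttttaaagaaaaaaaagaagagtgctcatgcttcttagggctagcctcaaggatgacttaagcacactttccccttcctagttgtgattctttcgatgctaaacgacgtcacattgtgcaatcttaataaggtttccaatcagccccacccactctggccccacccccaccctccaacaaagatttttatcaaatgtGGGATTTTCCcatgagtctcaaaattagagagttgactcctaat

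Cxcl1 and Cxcl2 lie next to each other on chromosome 5, with 10755 bases between them, and each promoter had 3 matches. In Cxcl1 the matches began 89, 71 and 70 bases before the start, and in Cxcl2 they began 97, 96 and 78 bases before it. Cxcl10 had 2 matches, which began 159 and 104 bases before the start, and Il6 had 1 match, 44 bases before it. The promoters of Cxcl12, Il1b, Il1r1 and Tnf had none in this window. The AP-1 motif TGANTCA was found before Cxcl10 and Il6 (6.75% of promoters), TATAAA on the strand of the gene before Il1b and Tnf (7.59%), and the interferon-type motif GAAA, any 2 bases and GAAA before Cxcl10 (2.98%). Ccl2 and Ccl7 are neighbours on chromosome 11, with 8258 bases between them.

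Levels are given as deposited, in FPKM, that is fragment counts scaled to transcript length and to library size. The recovered totals were 16100363 to 19761603 reads per library. Library 3 of the KO MGCs stood apart from the other MGC libraries. Across 8 transcripts of the response to hCG, among them Ptgs2, Areg and Ereg, its summed level was 734.9 FPKM, against 3940 to 6193 FPKM in the other 5 MGC libraries. The targeted genes did not separate the genotypes well. Sphk1 measured 0.460 to 1.88 FPKM in WT MGCs and 0.104 to 0.557 FPKM in KO MGCs, and at 0.0699 to 0.0954 and 0.0778 to 0.557 FPKM in WT and KO cumulus cells. The ranges of Sphk2 overlapped in both cell types. These values cover the whole gene, so exons left by the deletions are counted too, and WT and KO below stand for libraries labelled so. Granulosa markers were above 0 in all 12 libraries for 10 of 10 genes. Oocyte markers summed to 30.6 to 120.1 FPKM in MGCs and 1.45 to 5.42 FPKM in cumulus cells.

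In WT follicles the order of the levels differed between the cell types. In WT MGCs the highest mean levels were those of Il1r1 (41.4 ± 1.07 FPKM, SD, n = 3), Cxcl10 (41.3 ± 36.0), Ccl2 (26.3 ± 20.5) and Cxcl1 (14.3 ± 2.82), whose neighbours in this order overlapped. Ccl7 (6.03 ± 1.74 FPKM) and Il1b (5.49 ± 1.88) followed and overlapped, then Cxcl12 (2.83 ± 0.145), Cxcl2 (1.93 ± 1.49) and Il6 (1.76 ± 0.107). Tnf was lowest, at 0.548 ± 0.262 FPKM. In WT cumulus cells Cxcl1 came first (37.0 ± 6.87 FPKM), before Ccl2 (21.1 ± 16.0), Il1r1 (12.8 ± 2.27) and Cxcl10 (10.6 ± 6.01), and these neighbours overlapped too. The other 6 transcripts had mean levels of 1.75 FPKM or less.

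**Figure D1:**
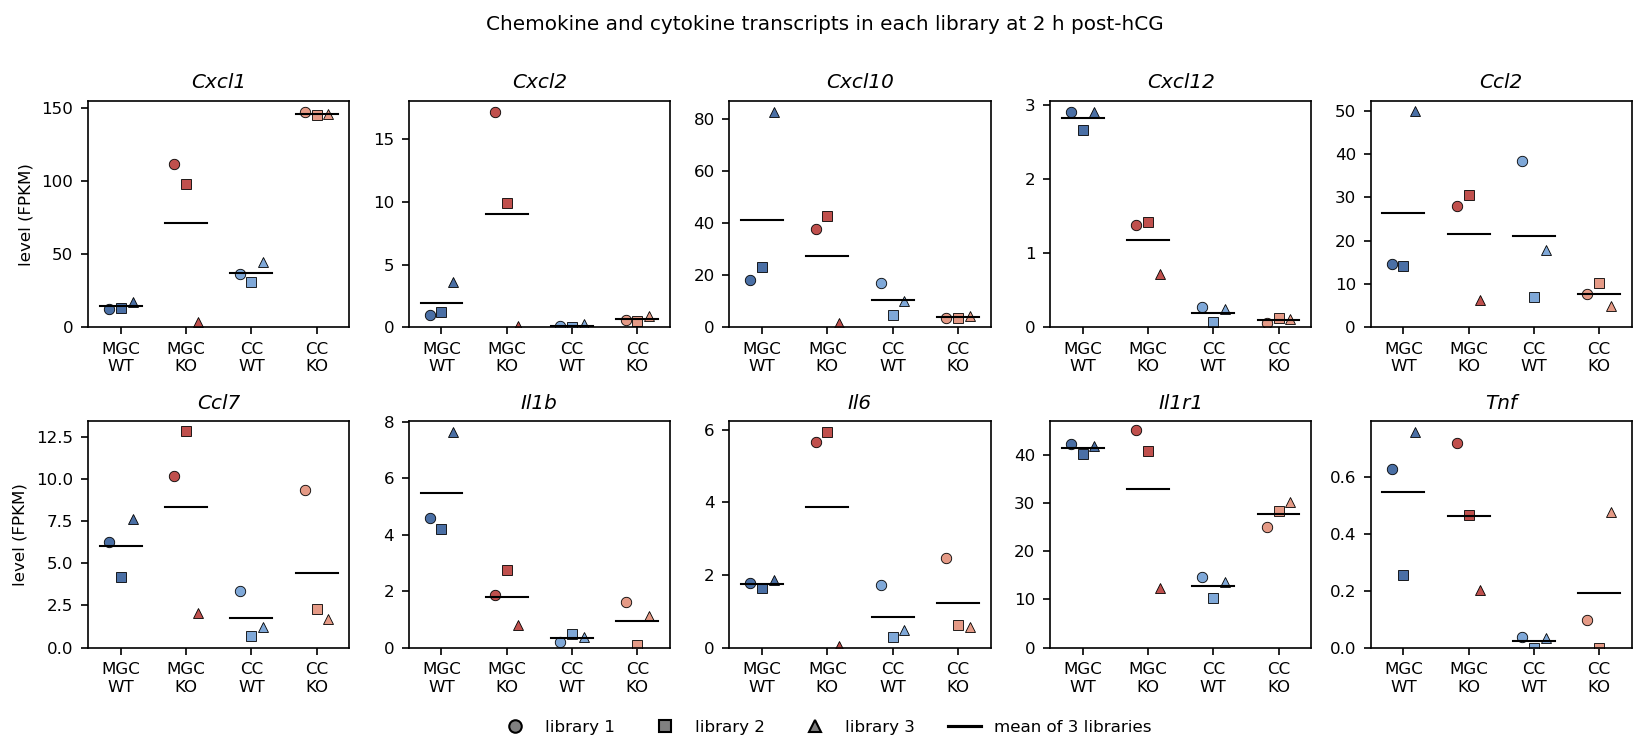
Level (FPKM, linear axis from 0) of each of the 10 transcripts in the 12 libraries, by cell type and genotype, with symbols for libraries 1 to 3 and a bar for the mean. In cumulus cells Cxcl1 measured 145 to 148 FPKM in KO against 30.6 to 44.3 FPKM in WT, and in KO MGCs library 3 lay below the WT libraries for all 10 transcripts.

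The first comparison asked which of these transcripts differ between the genotypes in cumulus cells. Cxcl1 and Il1r1 were higher in the libraries labelled KO, Cxcl1 about 3.91-fold and Il1r1 about 2.10-fold on the log2(FPKM + 1) scale. The filter, a group mean reaching 0.5 FPKM, left 8 transcripts, of which 2 rose and 0 fell. A call needed a fold change of 2 and a p of at most 0.05 after Benjamini-Hochberg adjustment. Among all 12205 genes tested, 4.19% were called higher. The median log2 fold change was 0.51 over the 8 transcripts and −0.06 over all genes. WT and KO ranges were apart for 4 of the 8, and for 42.3% of all genes, so non-overlap is common in these cells.

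Cxcl1, the main neutrophil attractant of mouse (Ensembl ENSMUSG00000029380, chr5:90891241-90893115, GRCm38), measured 36.2, 30.6 and 44.3 FPKM in WT, against 148, 145 and 146 FPKM in KO cumulus cells. Every KO library was above every WT library by a wide margin. The log2 change was 1.97 (limma: SE 0.166, adjusted p = 0.00056). The call held under every alternative run.

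Il1r1, the signalling receptor of interleukin-1 (chr1:40225080-40317257), measured 14.6, 10.3 and 13.6 FPKM in WT, against 25.0, 28.3 and 30.2 FPKM in KO cumulus cells. The groups did not overlap. Its log2 change was 1.07 (limma: SE 0.172, adjusted p = 0.0053), and without WT library 2 it was 0.93, below the limit of a fold change of 2.

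Cxcl2, which acts on the same receptor as Cxcl1, measured 0.0901, 0 and 0.275 FPKM in WT, against 0.590, 0.489 and 0.933 FPKM in KO cumulus cells, from 3, 0 and 10 reads against 23, 20 and 37 reads. Each KO library was above each WT library, at levels that are low in all 6. The log2 change was 0.57 (limma: SE 0.161, adjusted p = 0.038), below the fold limit. With a pseudocount of 0.1 it was 1.96 (limma adjusted p = 0.049) and was called.

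Cxcl10 (chr5:92346638-92348889), a target of interferon signalling, did not pass the test. It measured 16.9, 4.89 and 10.1 FPKM in WT, against 3.65, 3.57 and 4.51 FPKM in KO cumulus cells, so the groups did not overlap. The log2 change was −1.10 (limma: SE 0.353, adjusted p = 0.056). Cxcl10 was called lower with a filter of 1 FPKM, without WT library 2 (−1.52, limma adjusted p = 0.013) and by limma-voom on recovered reads (−1.26, adjusted p = 0.030). Its exons overlap those of Art3, which measured 0.633 FPKM or less in all 12 libraries.

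Ccl2 measured 38.4, 6.99 and 17.9 FPKM in WT, against 7.74, 10.3 and 4.95 FPKM in KO cumulus cells. The groups overlapped, with the highest value in WT library 1. The log2 change was −1.11 (limma: SE 0.516, adjusted p = 0.15), and without WT library 2 it was −1.70 (limma adjusted p = 0.031). Its neighbour Ccl7 measured 3.33, 0.694 and 1.21 FPKM in WT, against 9.35, 2.27 and 1.69 FPKM in KO, with a log2 change of 0.83 (limma: SE 0.522, adjusted p = 0.28).

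The cytokines were low in cumulus cells. Il6 measured 1.71, 0.298 and 0.469 FPKM in WT, against 2.47, 0.625 and 0.558 FPKM in KO (limma adjusted p = 0.65). Il1b measured 0.195, 0.496 and 0.358 FPKM in WT, against 1.61, 0.106 and 1.12 FPKM in KO (limma adjusted p = 0.30). The groups overlapped for both. Cxcl12 had 36, 11 and 35 reads in WT and 8, 20 and 17 reads in KO and was below the filter, and Tnf had 1, 0 and 1 reads against 3, 0 and 15 reads, so that at this depth no difference was detectable for Tnf.

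Markers of leukocytes moved in part with these values. The summed level of 14 macrophage markers was 38.8, 3.02 and 10.2 FPKM in WT cumulus libraries 1 to 3 and 55.5, 12.1 and 73.6 FPKM in KO cumulus libraries. The groups overlapped, and 3 of the 6 macrophage markers tested rose (C1qa, C1qb and Cd14), against 4.19% of all genes. Of 12 neutrophil markers the sum was 2.94 to 25.7 FPKM in WT and 0.240 to 1.11 FPKM in KO cumulus cells, and S100a9, at 0 in 2 of the 3 KO libraries, fell. Lymphocyte markers summed to at most 0.670 FPKM. Of the 6 theca and stroma markers tested 2 fell (Cyp17a1 and Lum), against 470 of 12205 genes. Theca and stroma markers summed to 66.7, 18.2 and 38.6 FPKM in WT, against 12.3, 34.1 and 25.2 FPKM in KO cumulus cells. Their order in WT, highest in library 1 and lowest in library 2, was also that of the macrophage and neutrophil marker sums. Ccl2, Ccl7, Cxcl10, Cxcl12, Il6 and Il1r1 had this order too, and Cxcl1, Cxcl2 and Il1b did not. Tnf, with 1, 0 and 1 reads, was too low for an order. How often this order occurs among all genes was not counted, so it is not read as particular to these transcripts. The part of these cells in the levels of the chemokines and cytokines was not tested. In bulk samples, fewer cells of a type and less RNA per cell cannot be told apart.

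**Figure D2:**
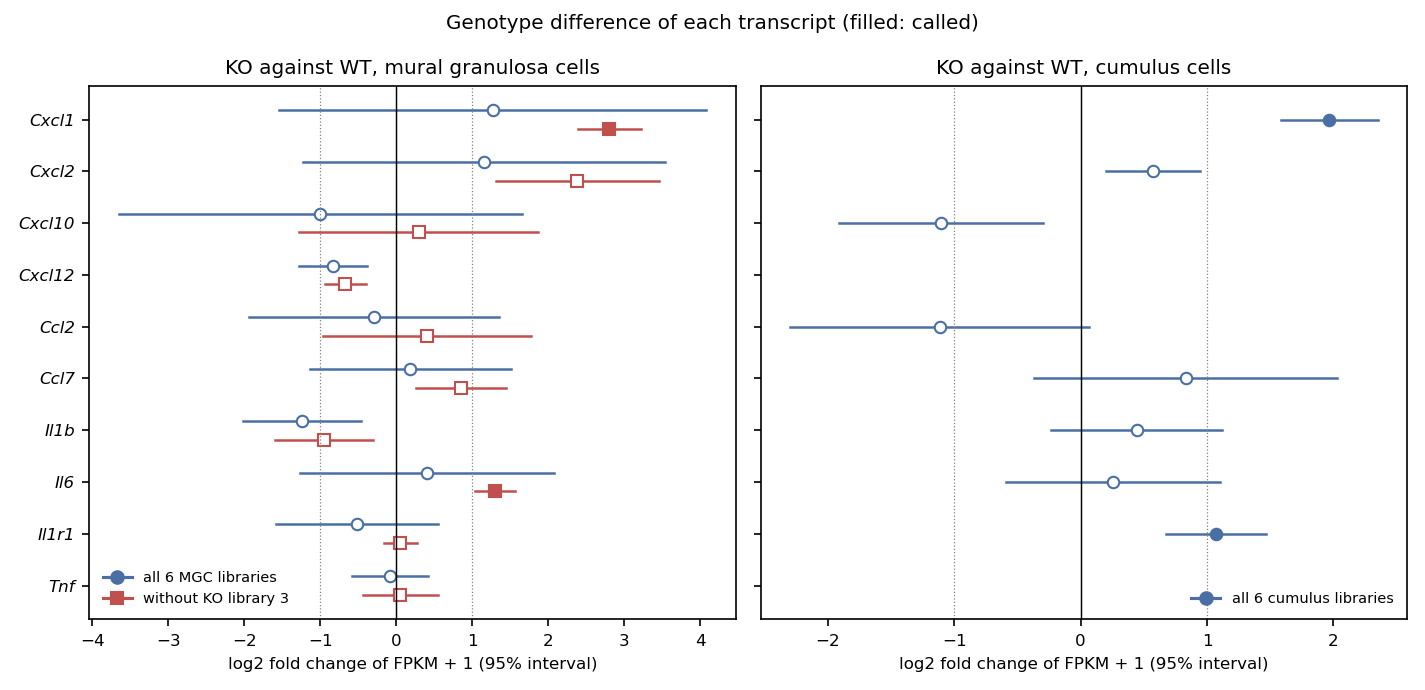
Log2 fold change of FPKM + 1, KO against WT, with its 95% interval, for the transcripts tested in MGCs (left; all 6 libraries as circles, without KO library 3 as squares) and in cumulus cells (right). Filled symbols passed both limits, and dotted lines mark a fold change of 2: Cxcl1 and Il1r1 in cumulus cells, none in all 6 MGC libraries, and Cxcl1 and Il6 in MGCs without KO library 3.

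The second comparison asked the same of MGCs. None of the 10 transcripts passed the test over all 6 libraries, where 0.0393% of 15279 genes were called. By limma, 2 of the 10, Cxcl12 and Il1b, had an unadjusted p of 0.05 or less, and limma-voom on recovered reads called 0 of 10. Among all 15279 genes such an unadjusted p was reached by 505 that were higher and 901 that were lower in KO. In KO library 3 all 10 transcripts were below every WT library, which was so for 26.0% of genes. In 4 of the 10, Cxcl1, Cxcl2, Ccl7 and Il6, KO libraries 1 and 2 were above every WT library while KO library 3 was below every WT library, a pattern of 4.07% of genes. Without KO library 3, Cxcl1 and Il6 were called higher (2 of 10, against 0.762% of 15215 genes), and none was called lower. With libraries 1 and 2 of each genotype alone, Cxcl1, Cxcl2, Ccl7 and Il6 were called higher (4 of 10, against 1.24% of 15433 genes). This run also left out WT library 3, in which these 4 were highest among the WT libraries. When only KO library 3 was left out, Cxcl2 and Ccl7 were not called (limma adjusted p = 0.066 and 0.14).

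Cxcl1 measured 12.4, 13.0 and 17.6 FPKM in MGCs of WT mice, against 112, 97.96 and 3.33 FPKM in KO MGCs. Libraries 1 and 2 of the KO were far above the WT and library 3 was below it. The log2 change was 1.27 (limma: SE 1.18, adjusted p = 0.79) with all libraries and 2.80 (limma: SE 0.166, adjusted p = 0.0035) without KO library 3.

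Cxcl2 measured 0.968, 1.18 and 3.64 FPKM in WT, against 17.2, 9.91 and 0.107 FPKM in KO MGCs, the last from 4 reads. KO libraries 1 and 2 were above every WT library and library 3 was below them. The log2 change was 1.15 (limma: SE 1.00, adjusted p = 0.77) with all libraries and 2.38 (limma: SE 0.430, adjusted p = 0.066) without KO library 3.

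Il6 measured 1.77, 1.64 and 1.86 FPKM in WT, against 5.66, 5.93 and 0.0456 FPKM in KO MGCs, the last from 2 reads, which is under the floor of 3 reads. The WT libraries were close together and the KO libraries lay on both sides of them. Its log2 change was 0.40 (limma: SE 0.702, adjusted p = 0.91) with all libraries and 1.30 (limma: SE 0.105, adjusted p = 0.0096) without KO library 3.

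The monocyte attractants and Cxcl10 were also high in WT library 3. Ccl2 measured 14.7, 14.2 and 49.98 FPKM in WT, against 28.0, 30.6 and 6.22 FPKM in KO MGCs (limma adjusted p = 0.94). Ccl7 measured 6.28, 4.17 and 7.63 FPKM in WT, against 10.2, 12.8 and 2.07 FPKM in KO MGCs (limma adjusted p = 0.95). Cxcl10 measured 18.1, 23.0 and 82.8 FPKM in WT, against 37.9, 42.9 and 1.79 FPKM in KO MGCs (limma adjusted p = 0.83). For all 3, KO libraries 1 and 2 were above WT libraries 1 and 2, and for Ccl2 and Cxcl10 they were below WT library 3.

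Il1b (chr2:129364570-129371139) and Cxcl12 (chr6:117168535-117181367) were the only ones of the 10 whose KO values were all below WT, as were those of 9.17% of all genes. Il1b measured 4.61, 4.22 and 7.65 FPKM in WT, against 1.86, 2.76 and 0.783 FPKM in KO MGCs, a log2 change of −1.24 (limma: SE 0.326, adjusted p = 0.31). Cxcl12 measured 2.91, 2.66 and 2.92 FPKM in WT, against 1.39, 1.42 and 0.724 FPKM in KO MGCs, a log2 change of −0.83 (limma: SE 0.188, adjusted p = 0.25). Neither was called without KO library 3 (limma adjusted p = 0.14 and 0.054).

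Il1r1 measured 42.3, 40.2 and 41.8 FPKM in WT, against 45.3, 40.8 and 12.4 FPKM in KO MGCs, so that the first 2 KO libraries were within 2.97 FPKM of the WT range. Its log2 change was −0.52 (limma: SE 0.449, adjusted p = 0.77) with all libraries. Without KO library 3 it was 0.05 with a 95% interval of −0.16 to 0.26. Tnf measured 0.629, 0.255 and 0.760 FPKM in WT, against 0.720, 0.468 and 0.203 FPKM in KO MGCs, with overlap of the groups (limma adjusted p = 0.94).

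Of the leukocyte markers in MGCs, 0 were called over all 6 libraries. Neutrophil markers summed to 171 to 272 FPKM in WT and 9.61 to 41.3 FPKM in KO MGCs. For 10 of the 10 tested every KO library was below every WT library, as for 9.17% of all genes. Without KO library 3, 5 of these 10 fell, among them S100a8 and S100a9, against 54 of 15215 genes. The sum of the macrophage markers was 60.2 to 165 FPKM in WT and 30.1 to 168 FPKM in KO MGCs, with overlap of the groups. Lyz2 made up much of this sum (98.6, 80.1 and 27.3 FPKM in WT, 42.2, 55.1 and 8.49 FPKM in KO), whereas C1qa was at 10.5, 9.63 and 3.88 FPKM in WT, against 25.6, 29.4 and 5.16 FPKM in KO. Without KO library 3, where Cxcl1 and Il6 were called, 2 of 14 macrophage markers rose (Aif1 and Fcgr1), against 0.762% of all genes. With libraries 1 and 2 alone 5 rose (also C1qa, C1qb and C1qc), against 1.24%. Lymphocyte markers summed to 1.16 to 1.68 FPKM in WT and to 7.02, 7.13 and 1.28 FPKM in the KO libraries, so that KO libraries 1 and 2 were above the WT range and library 3 was within it. Endothelial markers summed to 17.9 to 22.2 FPKM in WT and 10.5 to 13.0 FPKM in KO MGCs, and theca and stroma markers to 198 to 380.0 FPKM and 169 to 223 FPKM. The part of these cells in the levels of the chemokines and cytokines was not tested.

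**Figure D3:**
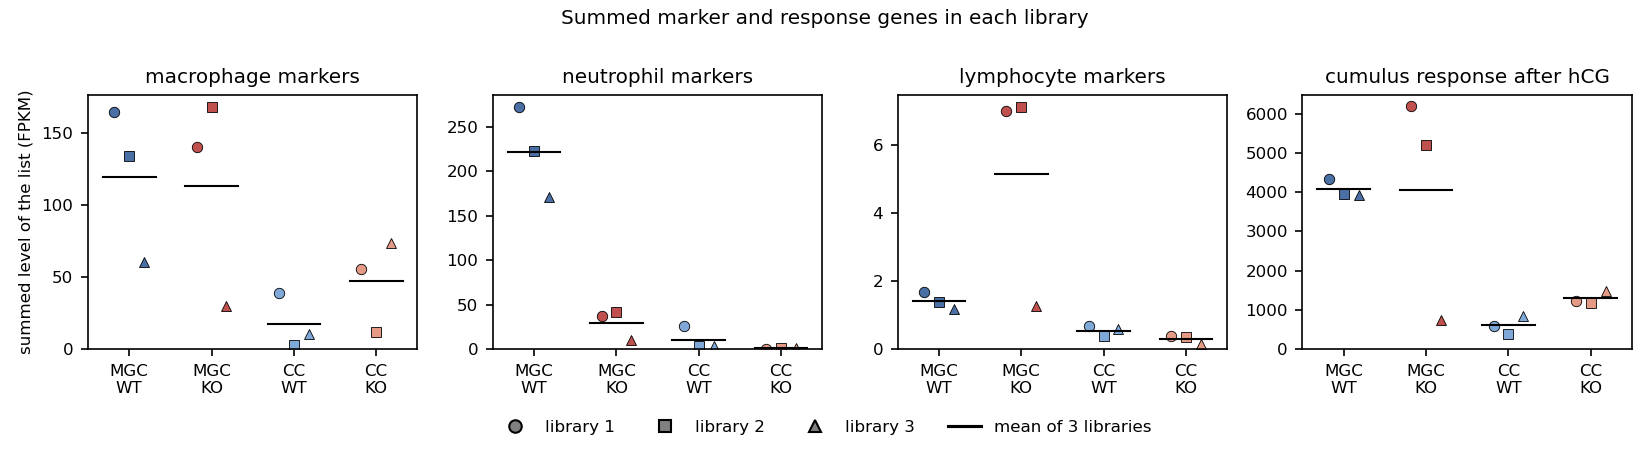
Summed level (FPKM, linear axis from 0) of 14 macrophage, 12 neutrophil and 10 lymphocyte markers and of 8 transcripts of the response to hCG in each library. Bars mark the means, and the last panel is titled cumulus response after hCG. Neutrophil markers were at 171 to 272 FPKM in WT MGCs against 9.61 to 41.3 FPKM in KO MGCs, and KO MGC library 3 had the lowest hCG response of the MGCs, at 734.9 FPKM.

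The third comparison set WT cumulus cells against WT MGCs, and only Cxcl1 was higher in cumulus cells. Of the 10 transcripts 1 was called higher (Cxcl1), against 16.0% of 15339 genes, and 6 were called lower, against 34.5%. The median gene had a log2 difference of −0.58 between the 2 tables, and after scaling by the median of ratios it was −0.16. The difference of each of the 10 transcripts is therefore also given relative to the median gene. That scaling changed the calls over all genes from 2450 higher and 5296 lower to 3745 and 3485, and those of the 10 transcripts to 1 higher and 3 lower. Before rescaling, 9 of 12 macrophage, 9 of 10 neutrophil, 8 of 10 theca and stroma, 6 of 9 endothelial and 10 of 10 oocyte markers were also called lower in WT cumulus cells. Of 10 granulosa markers 7 were lower and 1 higher. The part of other cells in the differences of the 10 transcripts was not tested.

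Cxcl1 had a log2 difference of 1.31 (limma: SE 0.179, adjusted p = 0.00029), or 1.89 relative to the median gene, and 2.04 after rescaling. Il1b was lower by the most on the log2(FPKM + 1) scale, with −2.23 (limma: SE 0.207, adjusted p = 3.2e-05), or −1.66 relative to the median gene. By limma-voom on recovered reads Cxcl2 (−4.47) and Cxcl12 (−4.03) were further below MGCs than Il1b (−3.94). Cxcl12 (−1.68, or −1.10 relative to the median gene) and Cxcl2 (−1.28, or −0.70) were also lower under both scalings. Il1r1 (−1.63), Cxcl10 (−1.68) and Ccl7 (−1.44) were lower in the FPKM as deposited, or −1.05, −1.10 and −0.86 relative to the median gene. These 3 were not called after rescaling, when their log2 differences were −0.90, −0.97 and −0.89. Il6 (−0.67, or −0.09 relative to the median gene) and Tnf (−0.58, or −0.0015) did not reach the fold limit on this scale. Both were called lower by limma-voom on recovered reads (−1.51 and −3.81, or −0.50 and −2.80 relative to the median gene of that run). Ccl2 changed sign with the scaling, from −0.34 (0.24 relative to the median gene) to 0.37.

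The genotype difference itself was then compared between the cell types in 1 model of 12 libraries. It was called for 0 of the 10 transcripts, against 3.93% of 15869 genes, and by limma-voom on recovered reads for 0 of the 10. An unadjusted limma p of 0.05 or less was reached by 3 of the 10, all with a higher difference in cumulus cells. Among all 15869 genes it was reached by 1793 with a higher and 1715 with a lower difference. The 3 were Il1b (interaction 1.69, limma: SE 0.476, adjusted p = 0.069), Cxcl12 (0.70, limma adjusted p = 0.079) and Il1r1 (1.59, limma adjusted p = 0.098). Cxcl12 was below the filter in cumulus cells, at 0.0519 to 0.273 FPKM, where log2(FPKM + 1) understates changes. By limma-voom on recovered reads its interaction was 0.42 (adjusted p = 0.78), so a differing genotype effect is not shown for it. The interaction of Cxcl1 was 0.70 with a 95% interval of −2.10 to 3.50. With MGC libraries 1 and 2 alone, 5 of the 10 were called, against 15.5% of 15973 genes. In these the KO minus WT difference was lower in cumulus cells than in MGCs for Cxcl1 (−0.98), Cxcl2 (−2.19) and Cxcl10 (−2.05), and higher for Il1r1 (1.01) and Cxcl12 (0.53). The limit given for Cxcl12 applies here too.

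Among the receptors and antagonists of these ligands, Il1rn and Ackr3 rose in KO cumulus cells. Of 16 listed genes 7 were tested in cumulus cells, 2 rose, against 4.19% of all genes, and 0 fell. The median log2 fold change was 0.59 against −0.06 over all genes. Il1rn, the natural antagonist of the interleukin-1 receptor, measured 0.0785, 0.131 and 0.144 FPKM in WT, against 2.30, 1.68 and 2.08 FPKM in KO cumulus cells. All 3 KO libraries were far above WT, with a log2 change of 1.43 (limma: SE 0.139, adjusted p = 0.00086). Ackr3, an atypical receptor that takes up Cxcl12, measured 1.19, 2.08 and 1.56 FPKM in WT, against 4.09, 7.38 and 3.97 FPKM in KO cumulus cells. Its log2 change was 1.21 (limma: SE 0.235, adjusted p = 0.010), and 0.96 without KO library 2.

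Il1rap, the partner chain of Il1r1, had a log2 change of 0.59 (limma adjusted p = 0.035) and the Tnf receptor Tnfrsf1b one of 0.87 (limma adjusted p = 0.0056), both below the fold limit. Tnfrsf1a (0.36), Cxcr4 (0.34) and Il6st, the shared receptor chain of interleukin-6 (0.11), did not pass the adjusted p. Cxcr2 measured 0.0498 FPKM or less in every cumulus library.

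In MGCs 15 of the 16 were tested and 0 were called over all 6 libraries (among them Ackr1 −0.55, Ackr3 −0.44, Ccr1 −0.40, Ccr2 0.00106, Cxcr2 −0.97, Cxcr3 0.51, Cxcr4 0.54, Il1r2 −0.49, Il1rap 0.08, Il1rn −0.51, Il6ra 0.11, Il6st 0.09, Tnfrsf1a 0.28 and Tnfrsf1b 0.56). At an unadjusted limma p of 0.05 or less there were 4, namely Ackr1, Cxcr2, Il1rn and Tnfrsf1b, against 505 higher and 901 lower among all 15279 genes. Cxcr4 measured 25.4, 27.5 and 25.2 FPKM in WT, against 87.2, 78.1 and 7.71 FPKM in KO MGCs. As for Cxcl1, KO libraries 1 and 2 were above every WT library and KO library 3 was below, a pattern of 4.07% of genes. Without KO library 3 the log2 change of Cxcr4 was 1.63 (limma: SE 0.0923, adjusted p = 0.0035). Cxcr2, which is also a neutrophil marker, measured 1.75, 1.70 and 1.48 FPKM in WT, against 0.581, 0.310 and 0.182 FPKM in KO MGCs.

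Against WT MGCs, 13 receptors and antagonists were tested in WT cumulus cells, and 8 were lower (7 after rescaling) and 0 higher. Of all 15339 genes 34.5% were lower (3485 genes after rescaling) and 16.0% higher. The largest differences were those of Tnfrsf1a (−4.51), Cxcr4 (−4.28) and Il6st (−2.81), which were −3.98, −3.79 and −2.20 after rescaling.

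**Figure D4:**
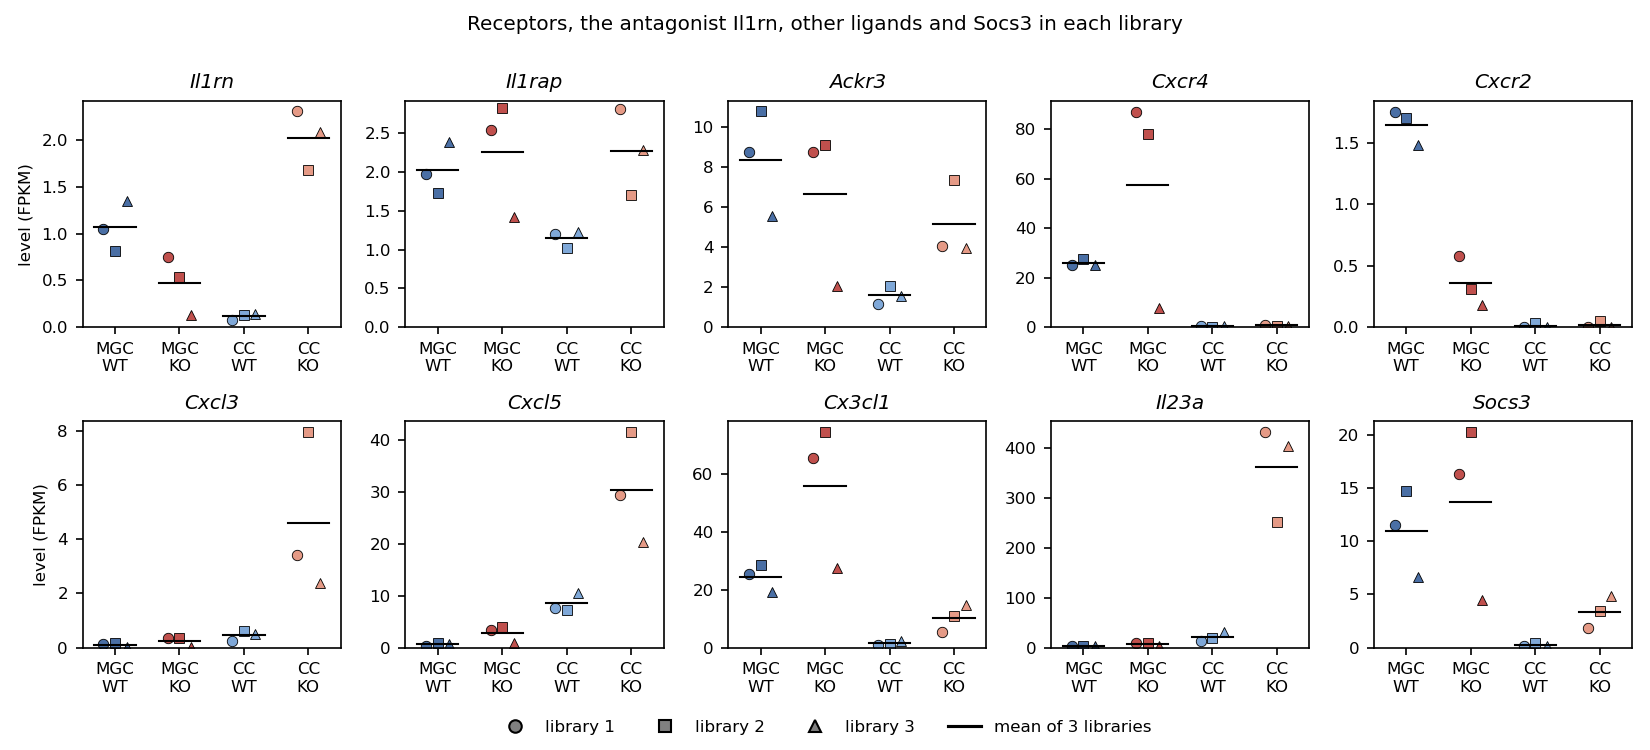
Level (FPKM, linear axis from 0) of 5 receptors and antagonists (Il1rn, Il1rap, Ackr3, Cxcr4, Cxcr2), of the ligands Cxcl3, Cxcl5, Cx3cl1 and Il23a and of the inhibitor Socs3 in each library, with a bar for the mean. In cumulus cells Il23a measured 252 to 431 FPKM in KO against 12.3 to 31.4 FPKM in WT, and Il1rn 1.68 to 2.30 FPKM against 0.0785 to 0.144 FPKM.

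Of 31 other chemokine ligands 12 were tested in cumulus cells, 4 rose, against 4.19% of all genes, and 0 fell, with a median log2 change of 0.57. Cx3cl1 (fractalkine) measured 1.03, 1.36 and 2.42 FPKM in WT, against 5.43, 10.8 and 14.6 FPKM in KO (log2 fold change 2.06, limma adjusted p = 0.0053). Ccl17 (1.91, limma adjusted p = 0.0067), Cxcl3 (1.83, limma adjusted p = 0.0074) and Cxcl5, chosen after its values were seen (1.69), were the others. Cxcl3 and Cxcl5 share the receptor Cxcr2 with Cxcl1 and Cxcl2.

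Of 32 other cytokines 7 were tested in cumulus cells, 2 rose, against 4.19% of all genes, and 0 fell. Il23a, a subunit of interleukin-23, measured 12.3, 19.4 and 31.4 FPKM in WT, against 431, 252 and 403 FPKM in KO cumulus cells, above the level of Cxcl1. Its log2 change was 4.10 (limma: SE 0.335, adjusted p = 0.00048). Lif, of the interleukin-6 family, measured 0.0785 FPKM or less in WT and 0.561, 0.989 and 2.22 FPKM in KO (log2 fold change 1.06, limma adjusted p = 0.019, and 0.77 without KO library 3). Of 37 other cytokine receptors 14 were tested and 0 were called at the fold limit, while 5 passed on the adjusted p alone, against 2725 of 12205 genes.

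Among 35 feedback inhibitors and early targets of NF-kB and JAK/STAT signalling 26 were tested in cumulus cells. Of these 6 rose, against 4.19% of all genes, and 0 fell, and the median log2 fold change was 0.66. Irf1, an interferon-induced transcription factor, measured 2.39, 2.87 and 2.13 FPKM in WT, against 16.6, 9.00 and 8.86 FPKM in KO (log2 fold change 1.80, limma adjusted p = 0.0027). Socs3, an inhibitor of JAK/STAT signalling, measured 0.129, 0.423 and 0.177 FPKM in WT, against 1.85, 3.41 and 4.87 FPKM in KO (1.76, limma adjusted p = 0.0036). Irak3, Socs1 and Tnip2, chosen after their values were seen, rose too. Of 8 transcripts of the response to hCG, Ptx3 (1.73, limma adjusted p = 0.0084) and Tnfaip6 (1.58, limma adjusted p = 0.0094), both components of the expanding cumulus matrix, rose and 0 fell. By sign alone, 4 of the 8 had a log2 change above 0 and 4 below 0. The paper reports lower mRNA of cumulus expansion-related genes in KO mice, measured by qRT-PCR at a later time after hCG. Of 10 granulosa markers 5 fell in KO cumulus cells, against 470 of 12205 genes, and 0 rose.

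In MGCs 0 genes of these 5 lists were called over all 6 libraries. Without KO library 3, 0.762% of all genes were called higher. In that run 4 of 18 chemokine ligands rose (Ccl5, Ccl8, Cx3cl1 and Cxcl5), as did 1 of 19 cytokines (Il23a). Of 32 feedback and early genes 2 rose (Nfkb1 and Tnfaip3), and 0 of 23 receptors were called. Of the 8 hCG response genes 1 rose (Ptx3), 7 were above 0 and the median log2 change was 0.71, against −0.09 over all genes. These genes are named after their values were seen.

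Between WT cumulus cells and WT MGCs 1 of 17 other chemokine ligands was called higher and 10 lower, against 16.0% and 34.5% of all genes. After rescaling 1 was higher and 5 lower. Cxcl5 was the higher one (2.53), and Cx3cl1 (−3.31), Cxcl14 (−3.04) and Ccl21a (−1.96) differed most in the other direction. Ccl21a has near-identical copies in the mouse genome, so its value is uncertain. Of 17 cytokines 4 were higher, led by Il23a (2.60), Tnfsf9 (1.75) and Ctf1 (1.45), and 5 lower (4 after rescaling), led by Tnfsf11 (−3.04), Il17d (−1.84) and Csf1 (−1.74). Of 21 receptors Ifngr1 was higher (1.14) and 12 lower (2 higher and 10 lower after rescaling), with Csf2ra (−4.75), Il17ra (−3.31) and Il4ra (−2.56) in front. Of 32 feedback and early genes Nfkbia was higher (1.16) and 21 lower (18 after rescaling), led by Nfkb2 (−4.01), Rela (−3.91) and Socs3 (−3.21). Of the 8 hCG response genes Has2 (1.73) and Ptx3 (1.42) were higher and 6 lower (5 after rescaling), led by Pgr (−5.94), Ereg (−5.29) and Areg (−4.52). All named genes of this paragraph kept their direction and their call after rescaling.

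The genes most like each transcript were found by Pearson's r of log2(FPKM + 1) over the 12 libraries, after subtraction of the mean of each cell type, among the 11097 genes tested in both tables. The points share libraries and genotype, and the values are descriptions. For Cxcl1 they were Gbp2 (r = 0.978), Ifi203 (0.966) and Slc7a11 (0.965), and for Cxcl2 they were Irgm2 (0.977), Relb (0.9752) and Parp14 (0.969). Cxcl10 was nearest to Samd9l (0.935), Cmpk2 (0.914) and Rsad2 (0.913). Ccl2 was nearest to Cyp17a1 (0.924), Serpina3g (0.901) and Prlr (0.892). For Ccl7 they were Trmt10a (0.930), Il6 (0.894) and Azi2 (0.878). Il1b was nearest to Vnn1 (0.900), Slc25a30 (0.867) and Tpp1 (0.864). For Il6 they were Ifi211 (0.953), Rnf2 (0.949) and Epha7 (0.936), and for Il1r1 they were Kdm7a (0.977), Rdh10 (0.977) and Frmd5 (0.9747). Il6 was thus among the genes nearest to Ccl7.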

How the data were processed

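RNA-seq of 3 libraries per group, WT or Sphk1/2gc-/-, MGCs or cumulus cells, was used as the FPKM values that the authors deposited, in 1 table of 29101 genes for MGCs and 1 of 33137 genes for cumulus cells. The submitters' processing notes name GRCm38 and HISAT2, and the counting tool and a common scaling of both tables are not given in the sources used here. Symbols and positions came from GENCODE M21, which lacks 64 and 66 of the listed genes. FPKM multiplied by exon length fell within 0.02 reads of a whole number for 90.6% to 92.1% of values, which gave the depth per library and a floor of 3 reads. For 99.7% of 25221 genes the length fitted in both tables or in none, so the tables shared their gene lengths, and they were compared. The fit does not show that libraries are comparable across tables. Each cell type has its own table, so differences of cell type and of table cannot be told apart. The kit is not stated to keep the strand, so reads of overlapping genes cannot be told apart.

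Genes reaching a group mean of 0.5 FPKM were tested with limma 3.58.1 (trend) in R 4.3.3 on log2(FPKM + 1), which understates changes at low levels. Calls needed a fold change of 2 and a p, adjusted by Benjamini-Hochberg across the genes tested, of at most 0.05, or that p alone for the interaction of genotype and cell type. Alternatives changed the pseudocount, the filter, the scaling, the model (limma-voom on recovered reads), the replicate block and the libraries. The code was tested on simulated data. The genes and lists were chosen with earlier results of these data known. All 10 transcripts, their receptors and antagonists tested in a table, and of each other list the 3 called genes with the largest change in each direction were named, with the 3 genes of highest correlation per transcript. Same-numbered libraries correlated at 0.220, 0.158 and 0.224 in MGCs after removal of group means, and WT library 1 with KO library 2 at 0.155. The labels state no pairing, so the main fits used none, and the number entered only the replicate block. In cumulus cells the same-numbered values were −0.148, −0.0511 and 0.115, and those libraries share only a number. Single-gene values of a few listed genes are not reported here.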

Additional observations from a re-analysis of the deposited data

Results flagged for a closer look

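The KO minus WT difference was higher in cumulus cells than in MGCs for 5 named genes by the interaction of genotype and cell type (limma on log2(FPKM + 1), all 12 libraries). Il23a differed by 3.08 (SE 0.612, limma adjusted p = 0.023). In cumulus cells 3 of 3 KO libraries were above every WT library, and in MGCs 2 of 3. KO MGC library 3 measured 2.17 FPKM, within the WT MGC range of 2.09 to 2.89 FPKM. Il1rn differed by 1.94 (limma adjusted p = 0.0042), Cxcl3 by 1.68 (limma adjusted p = 0.042) and Irak3 by 1.46 (limma adjusted p = 0.0098). For Cxcr2 the difference was 0.98 (limma adjusted p = 0.016), where KO MGCs were lower and cumulus cells were at 0.0498 FPKM or less in all 6 libraries. The calls of Il1rn and Irak3 held under every alternative run, whereas adjusted p ranged up to 0.36 for Cxcl3, 0.25 for Cxcr2 and 0.071 for Il23a. Without MGC KO library 3 the adjusted p of Cxcl3 was 0.056 and the difference was 1.54.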

How the results depend on the processing

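Of the 10 transcripts, 0 were called between genotypes in MGCs, 0 to 2 when 1 library was left out (2 without KO library 3) and 4 with MGC libraries 1 and 2 alone. In cumulus cells 2 were called, 4 by limma-voom on recovered reads, 3 with a pseudocount of 0.1, 3 with a filter of 1 FPKM and 2 to 3 with 1 library left out (without WT library 2, 1 higher and 2 lower, with Il1r1 lost). Between WT cell types 7 were called, 4 after scaling by the median of ratios, 9 by limma-voom, 9 with a pseudocount of 0.1, 6 without a filter and 5 to 7 with 1 library left out. For the interaction 0 were called, 0 to 2 with 1 library left out (2 without MGC KO library 3 and 1 without cumulus KO library 2), 5 with MGC libraries 1 and 2 alone and 3 at an adjusted p of 0.1. With those MGC libraries alone the log2 change in MGCs turned to 0.95 for Cxcl10, 0.97 for Ccl2, 0.058 for Il1r1 and 0.15 for Tnf, and the interaction to −0.98 for Cxcl1 and −0.19 for Ccl7. With a pseudocount of 0.1 and by limma-voom it turned in MGCs to −0.11 and −0.55 for Il6 and −0.17 and −0.34 for Ccr2, and the interaction to 1.03 and 2.47 for Cxcl2 and 0.64 and 1.19 for Il6. Median of ratios scaling turned the WT cell type difference of Ccl2 to 0.37. With 1 library left out the log2 changes that changed sign ranged in MGCs as Cxcl10 −1.69 to 0.29, Ccl2 −0.67 to 0.40, Ccl7 −0.23 to 0.85, Il6 −0.063 to 1.30, Il1r1 −0.84 to 0.052, Tnf −0.23 to 0.053, Cxcr4 −0.040 to 1.63, Ackr3 −0.73 to 0.12, Ccr2 −0.24 to 0.34, Il1rap −0.046 to 0.28, Il6ra −0.12 to 0.27, in cumulus cells as Il6 −0.12 to 0.58, between WT cell types as Ccl2 −0.90 to 0.25, and for the interaction as Cxcl1 −0.84 to 1.52, Cxcl2 −1.80 to 0.22, Cxcl10 −1.40 to 0.59, Ccl7 −0.024 to 1.06, Il6 −1.05 to 0.32. The cause was not tested. With the replicate block the counts of transcripts called were 0 in MGCs, 2 in cumulus cells, 7 between WT cell types and 0 for the interaction, and the block changed no other named call, while calls over all genes in MGCs went from 6 to 3. With 3 libraries per group and 1 KO MGC library apart from the others, differences in MGCs that vary between libraries were not detectable, and transcripts near the floor of 3 reads, such as Tnf, Cxcl2 and Il6 in some libraries, are imprecise.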
